A study of Mus musculus with 60 samples.

Results

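Potassium channel genes were taken as every row of the deposited tables whose symbol began with Kcn followed by a lower-case letter, which gave 94 of 21999 genes. They encode the pore-forming and auxiliary subunits of the channels through which potassium leaves a neuron or glial cell, and were sorted by symbol into 16 classes. RNA was measured by poly(A) RNA-seq (single reads of 75 bases) in the prefrontal cortex (Pfc), striatum (Str) and hippocampus (Hip) of 20 mice, 1 library per mouse and region. Wild-type (WT) mice and Glo1 knockout (KO) mice were compared; Glo1 encodes glyoxalase 1, which detoxifies methylglyoxal. The mice received vitamin B6 (VB6) at 1.4 mg per 100 g in the normal diet or at 5 µg per 100 g in the lacking diet, from 8 to 12 weeks of age. Each of the 4 genotype-diet combinations held 5 mice, so that every region had WT normal, WT lacking, KO normal and KO lacking groups of 5 libraries. The labels gave neither the form of the Glo1 allele nor the strain or sex of the mice. Batch 1, as the labels number it, held every KO library and batch 2 every WT library, so batch and genotype cannot be told apart.

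Potassium channels set the resting potential and end the action potential, and a neuron's firing pattern depends on which of them it makes. Voltage-gated (Kv) channels assemble from several alpha subunits and carry auxiliary subunits: Kv beta proteins on Kv1 channels and calcium-binding KChIP proteins on Kv4 channels. Inward rectifiers and tandem-pore leak channels act near rest, while calcium-activated BK and SK channels and sodium-activated channels follow activity. Striatal projection neurons, the medium spiny neurons, are known for a strongly negative resting potential held by inward rectifiers and for slow A-type currents that delay their first spike.

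Library totals lay between 7640047 and 13928265 counts and the normalization factors between 0.907 and 1.085. Glo1 held 0 to 10 counts in the 30 KO libraries and 299 to 734 in the 30 WT libraries, with no overlap. The marker genes went with the region labels: 8 medium spiny neuron genes summed to a median of 1659 RPKM in Str against 44.6 in Pfc and 28.7 in Hip, and 3 dentate granule cell genes to 55.8 RPKM in Hip against 3.05 and 4.32 in Pfc and striatum. In the striatal libraries 4 genes of cortical and hippocampal excitatory neurons summed to 11.8 to 77.3 RPKM, below every prefrontal (334 to 389) and hippocampal (413 to 483) library. Among the hippocampal libraries, 8 had 96.3 to 1197 RPKM of Ttr, a gene of the choroid plexus, against 2.14 to 49.2 in the other 12. These 8 libraries were 2 of each genotype-diet group.

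**Figure D1:**
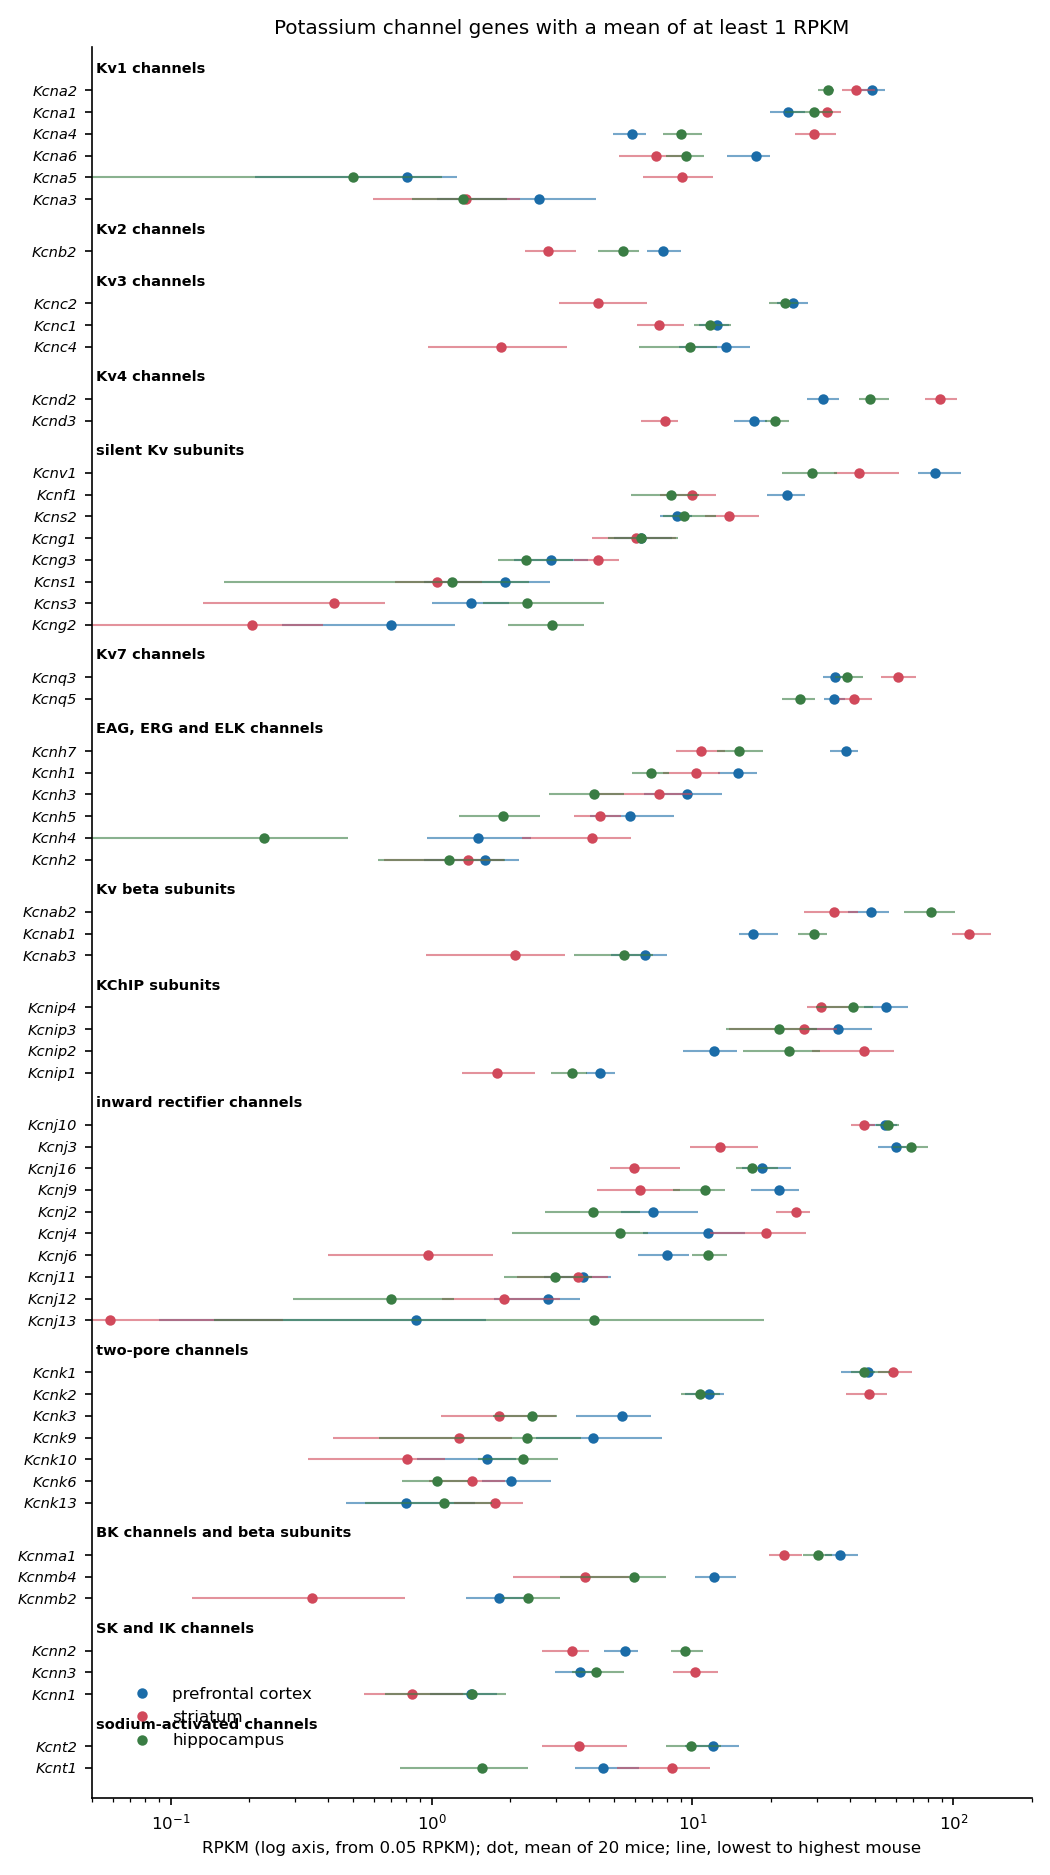
Level of potassium channel genes with a mean of at least 1 RPKM, by class, without the few genes not reported here. Dots are means of 20 mice and lines run from the lowest to the highest mouse, on a log axis from 0.05 RPKM, and the striatal dots lie apart from the other 2 regions for genes such as Kcnab1, Kcnd2, Kcnk2, Kcnj3 and Kcnj6.

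Of the 94 genes, 63 had a mean of at least 1 RPKM (read counts scaled to gene length and library total) over the 60 libraries, and 32 had at least 10. A filter on low counts left 75 for testing. The other 19 were low in every region: Kcna7, Kcnk16 and Kcnk18 had 0 counts in all libraries, and no other untested gene had more than 284 counts in total (Kcne4) or a mean above 0.26 RPKM (Kcnrg). Summed over all 94 genes, the level was 1083 RPKM ± 22.9 in Pfc, 1087 ± 25.5 in Str and 968 ± 30.0 in Hip (SD, n = 20). The summed level was thus alike in the prefrontal cortex and striatum, while the genes that made it up were not.

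In the prefrontal cortex the highest levels were those of Kcnv1 (84.7 RPKM ± 8.47), a silent subunit that modifies Kv2 channels, the G-protein-gated inward rectifier Kcnj3 (60.3 ± 4.01) and the KChIP gene Kcnip4 (55.0 ± 5.36). Kcnab1, a Kv beta subunit, led in the striatum at 114 RPKM ± 10.9, followed by the A-type channel Kcnd2 (88.7 ± 7.21) and the M-current subunit Kcnq3 (61.2 ± 5.45). In the hippocampus Kcnab2 was highest (81.8 RPKM ± 11.2), then Kcnj3 (68.9 ± 5.75) and the astrocytic inward rectifier Kcnj10 (56.2 ± 3.21; SD, n = 20 throughout). Neighbours in the hippocampal order overlapped in their ranges: Kcnab2 ran from 64.5 to 101 RPKM and Kcnj3 from 58.6 to 79.8.

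The comparison between regions was made with edgeR's quasi-likelihood test on the counts of all 60 libraries, as the mean over the 4 genotype-diet groups, and a gene was called at a Benjamini-Hochberg adjusted p under 0.05. In the prefrontal cortex 44 of the 75 tested genes were higher and 25 lower than in the striatum, where 69.9% of all 13930 genes tested were called, 34% higher and 35.9% lower. Against the hippocampus 44 were again higher and 25 lower (59.3% of all genes called, 29.1% higher and 30.2% lower). Between striatum and hippocampus 34 were higher and 32 lower in the striatum (66.4% of all genes called, 33.6% higher and 32.9% lower). With a difference of at least 2-fold as a further condition, 23 were higher and 12 lower in Pfc than in Str (8.45% and 6.61% of all genes, 15.1% in either direction). The corresponding counts were 16 and 5 against the hippocampus (4.35% and 4.59%, 8.94% in either direction), and 15 higher and 19 lower in Str than in Hip (6.11% and 8.34%, 14.5% in either direction).

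The median absolute log2 difference of the tested channel genes was 0.91 between prefrontal cortex and striatum, 0.61 between prefrontal cortex and hippocampus and 0.87 between striatum and hippocampus, beside 0.30, 0.21 and 0.26 over all genes. Ranges over the 20 mice did not overlap for 38, 27 and 37 of them (18.3%, 10.9% and 16.2% of all genes). Both contrasts placed 30 of the 75 highest in Pfc, 21 in Str and 13 in Hip (17.7%, 24.4% and 14.7% of all genes), and 11 had no single highest region. The 13 include Kcne2 and Kcnj13, which were high in the hippocampal libraries high in Ttr. They also include Kcnj3 and Kcng4, which lost the call against the prefrontal cortex under some of the alternative settings given below. The lowest region was the striatum for 31, the hippocampus for 23 and the prefrontal cortex for 12 (22.8%, 13.6% and 17.6% of all genes). In tissue samples such as these, fewer cells of a type and less RNA per cell cannot be told apart. The medium spiny and excitatory neuron markers above differed between the same regions. So did 4 oligodendrocyte markers (summed medians of 344, 931 and 743 RPKM in Pfc, Str and Hip) and 4 general neuron markers (1418, 749 and 1005). The 5 microglia markers lay closer together (72.1, 81.9 and 70.7). The part of all these markers in the results was not tested.

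**Figure D2:**
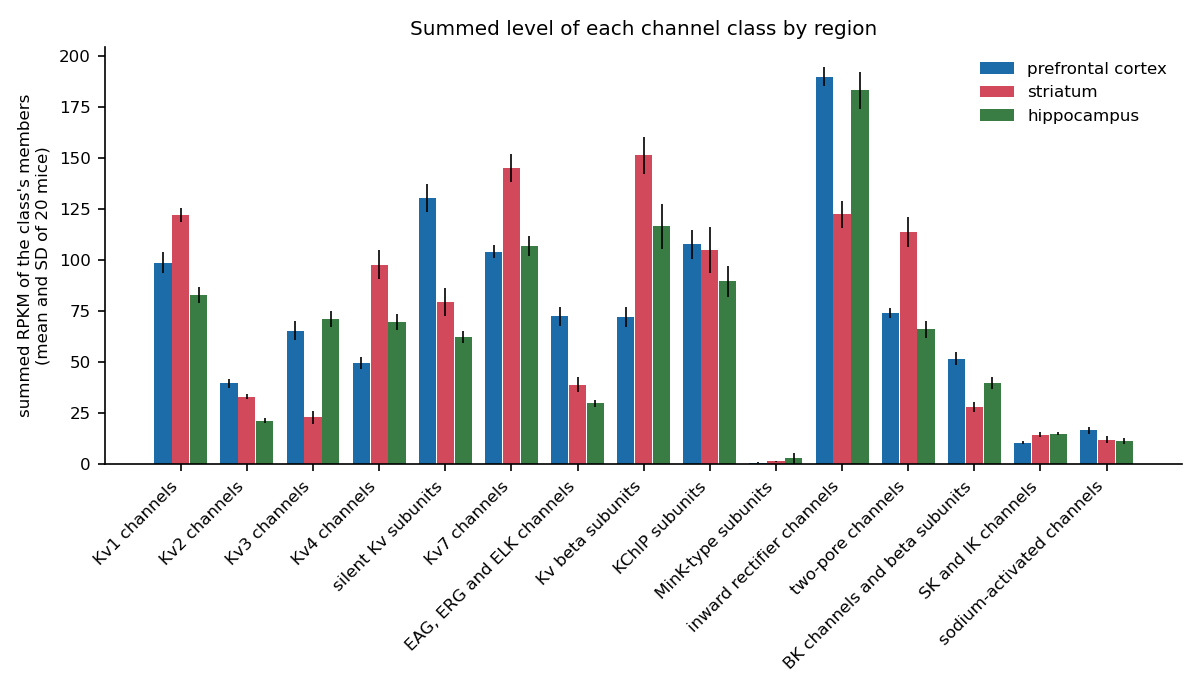
Summed level of each channel class, as the mean of 20 mice with the SD, in RPKM on an axis from 0. The striatum had the highest bar for Kv1, Kv4, Kv7, Kv beta and tandem-pore (two-pore) channels and the lowest for Kv3 channels, inward rectifiers and BK channels.

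Start regions are shown for 3 channel genes, taken from RefSeq (GRCm38.p6) as 250 bases before and 50 after the annotated start, 5′ to 3′ on the gene's strand. Kcna5 and Kcnh4 had the largest differences among the channel genes called higher in the striatum than in the hippocampus, and Kcnj13 was high in the libraries high in the choroid plexus gene Ttr. Capitals mark the letters TATAAA or GGGCGG on either strand; TGACGTCA was also searched and was found in none of the 3. Kcna5 lies at chr6:126535506-126535805, Kcnh4 at chr11:100759729-100760028 and Kcnj13 at chr1:87394680-87394979, all on the minus strand.
Kcna5: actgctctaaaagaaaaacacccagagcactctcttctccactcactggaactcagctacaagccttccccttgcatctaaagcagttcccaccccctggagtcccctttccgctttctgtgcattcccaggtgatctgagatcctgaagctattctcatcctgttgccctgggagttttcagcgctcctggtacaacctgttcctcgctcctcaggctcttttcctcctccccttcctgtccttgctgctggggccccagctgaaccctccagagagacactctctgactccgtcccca
Kcnh4: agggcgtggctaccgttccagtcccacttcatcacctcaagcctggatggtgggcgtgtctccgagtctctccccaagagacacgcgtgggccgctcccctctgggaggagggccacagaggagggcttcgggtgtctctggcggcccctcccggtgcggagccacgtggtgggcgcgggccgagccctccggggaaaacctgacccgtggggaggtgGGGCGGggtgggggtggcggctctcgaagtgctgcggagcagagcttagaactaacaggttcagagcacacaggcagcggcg
Kcnj13: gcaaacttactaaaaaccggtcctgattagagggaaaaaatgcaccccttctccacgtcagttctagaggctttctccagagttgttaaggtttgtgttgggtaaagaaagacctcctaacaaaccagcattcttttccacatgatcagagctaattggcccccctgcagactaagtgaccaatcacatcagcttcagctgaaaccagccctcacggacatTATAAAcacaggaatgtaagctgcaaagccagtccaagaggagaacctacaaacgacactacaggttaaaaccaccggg
The Kcnj13 window held 1 TATAAA and the Kcnh4 window 1 GGGCGG, while the Kcna5 window held neither. Of 94 start regions of 69 channel genes in the table, 5.32% held TATAAA, 47.9% GGGCGG and 0% TGACGTCA, beside 13.6%, 35.7% and 1.79% of all 32851 start regions. Kcnh4 held 23 CG pairs in its window, Kcnj13 5 and Kcna5 4, against a median of 7 over all start regions.

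Kv1 channels open at low voltages along axons. Kcna2, the highest of the class, had 42.0, 48.3 and 54.4 RPKM (lowest, median and highest mouse) in Pfc, 37.4, 42.0 and 50.05 in Str and 30.3, 33.6 and 35.0 in Hip. The hippocampal range lay below both others, which overlapped, and the prefrontal cortex exceeded the hippocampus by 0.61 (SE 0.03) on the log2 scale. Kcna4, which forms fast-inactivating A-type channels, had 24.6, 29.7 and 35.4 RPKM in Str, 4.96, 5.92 and 6.65 in Pfc and 7.73, 9.07 and 10.8 in Hip. None of these ranges overlapped. The log2 difference of Kcna4 was -2.34 (SE 0.04, adjusted p 2.7e-48) for prefrontal cortex minus striatum and 1.78 (SE 0.04) for striatum minus hippocampus.

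Kcna5, a delayed rectifier best known from heart muscle, showed the same direction at a lower level. It had 6.48, 8.89 and 12.0 RPKM in Str, 0.211, 0.788 and 1.26 in Pfc and 0.0355, 0.487 and 1.10 in Hip. Every striatal library lay above every other library. The log2 difference was -3.52 (SE 0.12, adjusted p 3.0e-34) for prefrontal cortex minus striatum and 4.27 (SE 0.13, adjusted p 6.2e-37) for striatum minus hippocampus. Kcna6 ran the other way, with a mean of 17.4 RPKM in Pfc, 7.26 in Str and 9.45 in Hip, but 39.6% of its exonic bases overlap the gene Gm26673 and the strand setting of the counting is not given in the sources used here. Kcna1 was highest in Str and Kcna3 in Pfc, so that 3 of the 6 tested Kv1 genes were highest in each of these regions and 0 in Hip. Over all genes the shares highest in Pfc, Str and Hip were 17.7%, 24.4% and 14.7%.

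Kv beta subunits sit on the inner face of Kv1 channels, and Kcnab1 speeds their inactivation. Kcnab1 had 99.0, 114 and 139 RPKM in Str, 15.03, 16.8 and 21.2 in Pfc and 25.3, 29.4 and 32.9 in Hip. No ranges overlapped, and the log2 difference of prefrontal cortex minus striatum was -2.77 (SE 0.05, adjusted p 1.0e-48). Kcnab2 was lowest where Kcnab1 was highest: it had 26.7, 34.3 and 43.0 RPKM in Str, 39.4, 50.3 and 56.8 in Pfc and 64.5, 83.3 and 101 in Hip. The lead in the class therefore passed from Kcnab2, with 67.2% of the summed beta subunit level in Pfc and 70.3% in Hip, to Kcnab1, with 75.6% in Str. Kcnab3, a minor member, had means of 6.58, 2.09 and 5.44 RPKM in prefrontal cortex, striatum and hippocampus.

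**Figure D3:**
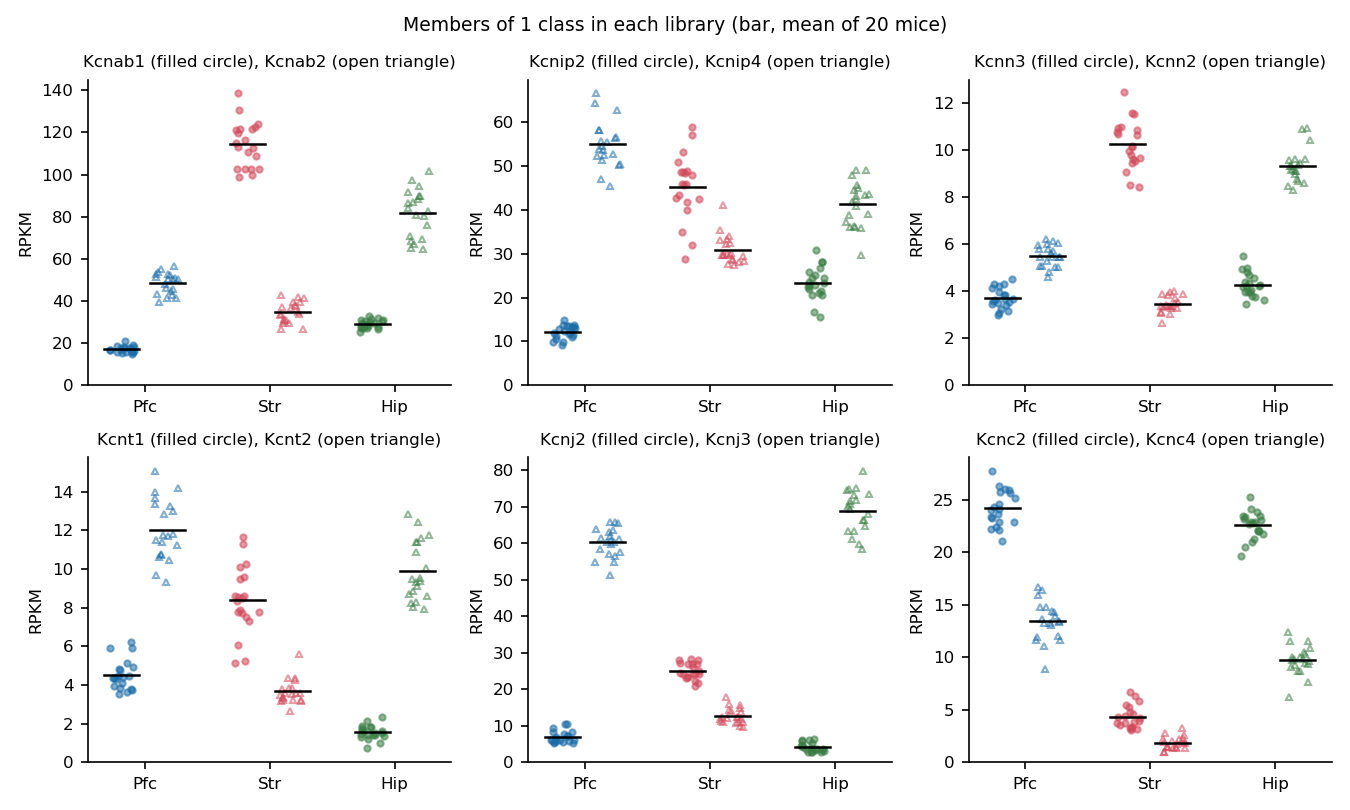
RPKM of 2 genes of 1 class in every library, with filled circles for the first gene, open triangles for the second and bars for means of 20 mice. The order of the 2 genes in the striatum is opposite to that in the other regions for Kcnab1 and Kcnab2, Kcnip2 and Kcnip4, Kcnn3 and Kcnn2, Kcnt1 and Kcnt2, and Kcnj2 and Kcnj3, while Kcnc2 and Kcnc4 are both low there.

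Kv4 channels carry the dendritic A-type current, with KChIP proteins as partners. Kcnd2 had 77.5, 89.4 and 103 RPKM in Str, 27.5, 31.3 and 36.3 in Pfc and 43.3, 47.5 and 56.4 in Hip, again with no overlap. It was lower in Pfc than in Str by a log2 difference of -1.52 (SE 0.05, adjusted p 1.4e-37). Kcnd3 was lowest in Str instead, with means of 7.82 RPKM there, 17.2 in Pfc and 20.7 in Hip. Kcnd2 made up 90.8% of the summed Kv4 level in Str, beside 63.4% in Pfc and 69.1% in Hip.

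Of the 4 KChIP genes, Kcnip2 alone was highest in Str by both contrasts, and the other 3 were highest in Pfc. Over all genes these shares were 24.4% and 17.7%. Kcnip2 had 28.8, 45.8 and 59.0 RPKM in Str, 9.19, 12.1 and 14.8 in Pfc and 15.5, 23.2 and 30.9 in Hip. The striatal range overlapped the hippocampal one at its lower end and lay above the prefrontal one. Its log2 difference was -1.92 (SE 0.06) for prefrontal cortex minus striatum and -0.88 (SE 0.06) for prefrontal cortex minus hippocampus. Kcnip4 had 45.5, 54.4 and 66.8 RPKM in Pfc, 27.5, 29.8 and 41.1 in Str and 29.7, 42.2 and 49.1 in Hip, where only the prefrontal and striatal ranges were apart. It led the class in Pfc (51.1% of the summed level) and the hippocampus (46.2%), and Kcnip2 led it in Str (43.3%). Kcnip3, also known as a transcriptional repressor, had means of 36.0, 26.7 and 21.4 RPKM in prefrontal cortex, striatum and hippocampus.

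Kv3 channels open at high voltages and close fast, which lets interneurons fire rapidly. Kcnc1, Kcnc2 and Kcnc4 were higher in Pfc than in Str and lower in Str than in Hip. Kcnc2 had 21.1, 24.1 and 27.7 RPKM in Pfc, 3.08, 4.04 and 6.70 in Str and 19.6, 22.8 and 25.3 in Hip. The prefrontal and hippocampal ranges overlapped, and the striatal range lay far below both, with a log2 difference of 2.45 (SE 0.07, adjusted p 2.5e-39) for prefrontal cortex minus striatum. Kcnc4 had 8.87, 13.4 and 16.7 RPKM in Pfc, 0.967, 1.79 and 3.31 in Str and 6.26, 9.78 and 12.4 in Hip. Its striatal range also lay below both others, by a log2 difference of 2.84 (SE 0.09) for prefrontal cortex minus striatum.

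Pvalb, a marker of fast-spiking interneurons, also had its lowest levels in Str, at 6.25 to 10.7 RPKM against 19.5 to 38.0 in Pfc and 19.5 to 38.8 in Hip. The 5 genes listed as interneuron markers summed to medians of 296, 369 and 258 RPKM in prefrontal cortex, striatum and hippocampus, but differed in direction. Gad1 (medians of 41.8, 96.0 and 48.6 RPKM) and Gad2 (55.9, 181 and 55.3) were highest in Str. Neither gene is particular to interneurons, and the sum was not read as a measure of interneurons. Sst (125, 83.2 and 111) and Vip (44.5, 2.53 and 14.3) had their lowest medians there, as Pvalb did. The part of these genes in the Kv3 result was not tested.

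Kv2 channels are the main delayed rectifiers of cell bodies. Kcnb2 had means of 7.72, 2.79 and 5.42 RPKM in prefrontal cortex, striatum and hippocampus.

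Silent subunits form no channel alone and alter Kv2 channels. Kcnv1 had 73.4, 83.6 and 107 RPKM in Pfc, 34.8, 41.0 and 61.6 in Str and 22.1, 28.7 and 35.7 in Hip. The prefrontal range stood alone, and the log2 difference from the hippocampus was 1.62 (SE 0.06, adjusted p 6.8e-32). Kcnf1 was also highest there, at a mean of 23.1 RPKM against 9.92 in Str and 8.31 in Hip. Kcng1 passed in none of the 3 contrasts: its means were 6.36, 6.08 and 6.34 RPKM, and its 95% intervals stayed between -0.11 and 0.20 on the log2 scale.

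Kcng2, another silent subunit, was a low hippocampal gene. It had 1.96, 2.92 and 3.84 RPKM in Hip, 0.268, 0.669 and 1.23 in Pfc and 0, 0.222 and 0.383 in Str. Every hippocampal library lay above every other, by a log2 difference of -2.02 (SE 0.13) for prefrontal cortex minus hippocampus and -3.74 (SE 0.15, adjusted p 4.2e-31) for striatum minus hippocampus. Kcns3 had the same order, with means of 2.32 RPKM in Hip, 1.41 in Pfc and 0.423 in Str. Of the 9 tested silent subunits, 3 were highest in Pfc, 2 in Str, 3 in Hip and 1 in none. The shares over all genes were 17.7%, 24.4%, 14.7% and 43.3%.

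Kv7 channels carry the M-current, which acetylcholine suppresses through muscarinic receptors. Kcnq3 had 53.0, 60.4 and 71.9 RPKM in Str, 31.7, 35.6 and 38.9 in Pfc and 35.3, 38.9 and 44.97 in Hip. The striatal range lay above the others, which overlapped, and the log2 difference was -0.82 (SE 0.04) for prefrontal cortex minus striatum. Kcnq5 had its highest mean in the striatum as well, at 41.5 RPKM, and its lowest in the hippocampus, at 25.9.

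In the EAG, ERG and ELK family, 7 of the 8 genes were called higher in Pfc than in Hip (29.1% of all genes). Kcnh7, an ERG channel, had 33.5, 37.9 and 43.2 RPKM in Pfc, 8.64, 10.7 and 13.3 in Str and 12.4, 15.4 and 18.7 in Hip. The prefrontal range stood alone, by a log2 difference of 1.82 (SE 0.05, adjusted p 1.2e-37) from the striatum. Kcnh5, an EAG channel, had means of 5.76, 4.40 and 1.87 RPKM in prefrontal cortex, striatum and hippocampus, and a log2 difference of 1.67 (SE 0.08) for prefrontal cortex minus hippocampus.

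Kcnh4, an ELK channel, was the only one of the family called highest in the striatum. It had 2.22, 4.38 and 5.81 RPKM in Str, 0.957, 1.34 and 2.40 in Pfc and 0, 0.214 and 0.479 in Hip. The striatal range overlapped the prefrontal one at its lower end and lay above the hippocampal one. The log2 difference of striatum minus hippocampus was 4.27 (SE 0.15, adjusted p 1.4e-34), with the striatum higher in 20 of 20 mice.

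G-protein-gated inward rectifiers (Kcnj3, Kcnj5, Kcnj6 and Kcnj9) open when transmitters such as GABA act on metabotropic receptors. Kcnj5 was low and not tested, with means of 0.0560, 0.127 and 0.0838 RPKM in prefrontal cortex, striatum and hippocampus. The 3 tested genes were lowest in the striatum (22.8% of all genes). Kcnj3 had 9.81, 12.3 and 17.9 RPKM there, 51.3, 60.6 and 66.0 in Pfc and 58.6, 69.9 and 79.8 in Hip, so that the striatal range lay below both others. The log2 difference of striatum minus hippocampus was -2.35 (SE 0.06, adjusted p 2.9e-42); 31.1% of its exonic bases overlap Gm26794. Kcnj6 had 0.402, 0.960 and 1.73 RPKM in Str, 6.19, 8.08 and 9.66 in Pfc and 9.94, 11.4 and 13.6 in Hip. No ranges overlapped, and the log2 difference of striatum minus hippocampus was -3.48 (SE 0.09, adjusted p 1.3e-40). Kcnj9 was highest in the prefrontal cortex, with means of 21.4, 6.27 and 11.1 RPKM in prefrontal cortex, striatum and hippocampus.

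Strong inward rectifiers hold neurons near the potassium equilibrium potential. Of the 4 genes Kcnj2, Kcnj4, Kcnj12 and Kcnj14, the first 2 were highest in the striatum (24.4% of all genes). Kcnj2 had 20.8, 24.5 and 28.3 RPKM in Str, 5.30, 6.28 and 10.5 in Pfc and 2.73, 3.76 and 6.32 in Hip. The striatal range stood alone, with a log2 difference of 2.68 (SE 0.10, adjusted p 1.5e-33) from the hippocampus and of -1.85 (SE 0.09) for prefrontal cortex minus striatum. Kcnj4 had means of 19.2 RPKM in Str, 11.5 in Pfc and 5.28 in Hip. Kcnj12 was highest in the prefrontal cortex instead, with 1.74, 2.85 and 3.71 RPKM in Pfc, 1.09, 1.93 and 3.10 in Str and 0.296, 0.709 and 1.22 in Hip. The prefrontal and hippocampal ranges were apart, by a log2 difference of 2.06 (SE 0.12). Kcnj14 was low, with means of 0.197, 0.288 and 0.374 RPKM in prefrontal cortex, striatum and hippocampus, and had no single highest region.

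Kcnj10 and Kcnj16 build the potassium-buffering channels of astrocytes. Kcnj10 had 47.5, 55.7 and 61.0 RPKM in Pfc, 40.6, 44.8 and 50.1 in Str and 50.5, 55.8 and 61.8 in Hip. The difference between prefrontal cortex and hippocampus did not pass the test (log2 difference 0.02, 95% interval -0.04 to 0.08), and the striatum was lower than both, by a log2 difference of 0.25 (SE 0.03) from the prefrontal cortex. Kcnj16 had a mean of 5.99 RPKM in the striatum against 18.5 and 16.9 in prefrontal cortex and hippocampus. The 5 astrocyte markers summed to medians of 325, 263 and 468 RPKM in prefrontal cortex, striatum and hippocampus, and their part was not tested. Kcnj11, the pore of ATP-sensitive channels, had means of 3.799, 3.65 and 2.96 RPKM, with a log2 difference of 0.03 (95% interval -0.14 to 0.21) for prefrontal cortex minus striatum.

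Tandem-pore channels supply the leak current at rest. Kcnk1 had 51.3, 58.9 and 69.1 RPKM in Str, 37.0, 47.3 and 50.1 in Pfc and 40.5, 44.9 and 57.0 in Hip. The striatal range lay above the prefrontal one, by a log2 difference of -0.35 (SE 0.04) for prefrontal cortex minus striatum. Kcnk2, which responds to stretch and lipids, had 38.6, 47.1 and 55.7 RPKM in Str, 9.38, 11.6 and 13.2 in Pfc and 9.02, 10.6 and 12.7 in Hip. The striatal range stood alone, with a log2 difference of 2.23 (SE 0.05, adjusted p 3.9e-45) from the hippocampus; 12.2% of its exonic bases overlap A430027H14Rik.

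Kcnk4, a mechanosensitive relative of Kcnk2, ran the other way. It had 0.446, 1.22 and 2.31 RPKM in Pfc, 0, 0.113 and 0.410 in Str and 0.0593, 0.463 and 1.61 in Hip. The prefrontal range lay just above the striatal one, and the log2 difference was 3.03 (SE 0.28, adjusted p 9.7e-15). In this gene 13.1% of the exonic bases overlap Catsperz. The acid-sensitive leak channels Kcnk3 and Kcnk9 were also highest in Pfc, at means of 5.38 and 4.14 RPKM, and lowest in Str, at 1.82 and 1.28.

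BK channels open with calcium and voltage together. Their pore gene Kcnma1 had 32.1, 36.3 and 43.0 RPKM in Pfc, 19.6, 22.1 and 26.2 in Str and 26.6, 30.3 and 34.3 in Hip. The striatal range lay below both others, which overlapped each other, by a log2 difference of -0.35 (SE 0.04) for striatum minus hippocampus. Kcnmb2, whose product inactivates the channel, had means of 1.81, 0.349 and 2.33 RPKM in prefrontal cortex, striatum and hippocampus, a log2 difference of -2.69 (SE 0.11) for striatum minus hippocampus. Kcnmb4, the main neuronal beta subunit, had means of 12.1, 3.88 and 5.96 RPKM, but 31.5% of its exonic bases overlap the antisense genes Kcnmb4os1 and Kcnmb4os2.

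The MinK-type class, small auxiliary subunits, held 2 tested genes. Kcne1l had 0.562, 1.11 and 1.95 RPKM in Str, 0.0560, 0.401 and 0.792 in Pfc and 0.281, 0.891 and 1.62 in Hip. All 3 ranges overlapped, although the prefrontal cortex was lower than the striatum in 20 of 20 mice (log2 difference -1.60, SE 0.20). The other, Kcne2, is described with Kcnj13.

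SK channels give the afterhyperpolarization that follows calcium entry. Kcnn2 had 8.29, 9.23 and 10.9 RPKM in Hip, 4.58, 5.45 and 6.20 in Pfc and 2.65, 3.38 and 4.004 in Str. Kcnn3 had 8.43, 10.1 and 12.47 RPKM in Str, 2.98, 3.65 and 4.52 in Pfc and 3.45, 4.20 and 5.48 in Hip. The ranges of Kcnn2 were apart in all 3 regions, and those of Kcnn3 overlapped only between prefrontal cortex and hippocampus. For striatum minus hippocampus the log2 difference was -1.36 (SE 0.05) in Kcnn2 and 1.35 (SE 0.05) in Kcnn3, so that Kcnn3 held 70.4% of the summed class level in Str and Kcnn2 62.0% in Hip.

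The sodium-activated channels Kcnt1 and Kcnt2 exchanged places in the same way. Kcnt1 had 5.13, 8.41 and 11.6 RPKM in Str, 3.54, 4.40 and 6.21 in Pfc and 0.760, 1.53 and 2.34 in Hip, a log2 difference of 2.50 (SE 0.08, adjusted p 5.9e-35) for striatum minus hippocampus. The hippocampal range lay below both others, which overlapped. Kcnt2 had means of 12.0 RPKM in Pfc, 3.67 in Str and 9.89 in Hip, with a log2 difference of 1.69 (SE 0.07) for prefrontal cortex minus striatum. Kcnt1 held 69.5% of their summed level in Str, and Kcnt2 72.6% in Pfc and 86.4% in Hip.

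**Figure D4:**
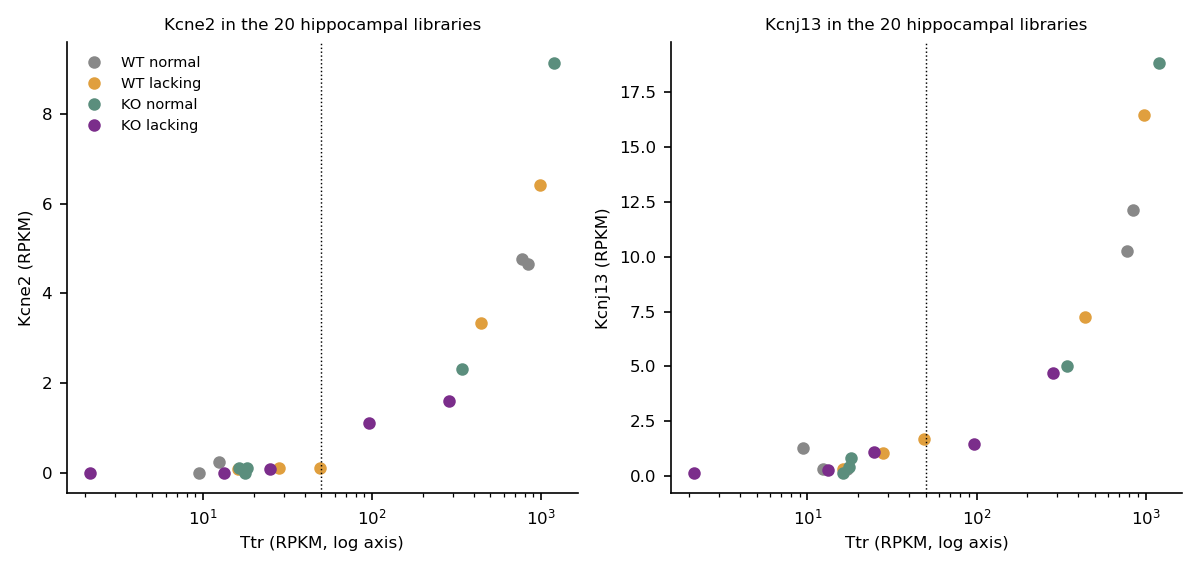
Kcne2 and Kcnj13 against the choroid plexus gene Ttr in the 20 hippocampal libraries, in RPKM with Ttr on a log axis and a dotted line at 50 RPKM of Ttr. In the 8 libraries right of the line Kcne2 lay between 1.12 and 9.14 RPKM, above all 12 others.

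Kcne2 and Kcnj13 were high in the 8 hippocampal libraries high in Ttr. Both are known from the choroid plexus, the epithelium that makes cerebrospinal fluid: Kcne2 is a small auxiliary subunit and Kcnj13 a weak inward rectifier. Kcne2 had 1.12, 3.999 and 9.14 RPKM (lowest, median, highest) in these 8 libraries and 0, 0.09 and 0.25 in the other 12, with no overlap. Kcnj13 had 1.48, 8.76 and 18.8 RPKM in the 8 and 0.15, 0.37 and 1.71 in the 12, which overlapped slightly. The 8 libraries were chosen by Ttr, after its values were seen, and Ttr made up most of the sum of the 6 choroid plexus markers (104 to 1237 RPKM in the 8, 5.53 to 53.9 in the 12), so that the difference in this sum follows from the choice. The other 5 markers were also higher in median in the 8 libraries, such as Clic6 at 5.88 against 0.43 RPKM and Otx2 at 2.02 against 0.138.

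In the other regions Kcne2 had 8 counts over all prefrontal and 8 over all striatal libraries, beside 620 in the hippocampus. It was called between hippocampus and each other region, but some groups held 0 counts and the fitted fold is not given. Without the 8 libraries Kcne2 did not pass the low-count filter. Kcnj13 had 0.0905, 0.843 and 1.62 RPKM in Pfc and 0, 0 and 0.271 in Str. Its log2 difference was 4.11 (SE 0.84, adjusted p 2.0e-05) for prefrontal cortex minus striatum and -2.04 (SE 0.42, adjusted p 2.8e-05) for prefrontal cortex minus hippocampus. Without the 8 libraries the latter became 0.48 (SE 0.29, adjusted p 0.167). Striatum minus hippocampus was -6.15 (SE 0.69, adjusted p 8.2e-12), on 15 counts over all striatal libraries, and -3.64 (SE 0.47) without the 8. It was the only one of the 74 genes still tested whose hippocampal contrasts moved by more than 1.5-fold. Of its exonic bases, 49.1% overlap Gigyf2, so that the counts of the 2 genes cannot be told apart there.

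Genes that lie side by side did not always share a region. Kcnj16 and Kcnj2 are 38.2 kb apart on chromosome 11 (GRCm38), and the first was highest in Pfc and the second in Str. Kcna1, highest in Str, and Kcna6, highest in Pfc, are 61.9 kb apart on chromosome 6. The overlap of Kcna6 with Gm26673 applies here too. Kcna3 and Kcna2, 63.1 kb apart on chromosome 3, were both highest in the prefrontal cortex. Within 100 kb there were 9 such pairs, 5 with both genes tested: 1 shared its highest region, 2 differed, and 2 held a gene with no single highest region. The share over all neighbouring genes was not counted.

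Partner genes outside the family were read from a list of 28, of which 26 were tested. In the prefrontal cortex 13 were higher and 11 lower than in Str (34% and 35.9% of all genes), and 17 were higher and 4 lower than in Hip (29.1% and 30.2%). Between striatum and hippocampus 13 were higher and 10 lower in the striatum (33.6% and 32.9%). Between prefrontal cortex and the other regions the largest differences were those of Gabbr2, a GABA-B receptor subunit that opens the G-protein-gated channels (2.05, SE 0.06, prefrontal cortex minus striatum), and Dpp10, a Kv4 auxiliary subunit (2.07, SE 0.05, prefrontal cortex minus hippocampus), both as log2 differences.

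Genotype and diet were compared within each region, on its 20 libraries, to learn which channel genes respond to loss of Glo1 and to low VB6. No channel gene passed the threshold in any of the 24 contrasts with edgeR, and none passed with DESeq2 or limma. In the prefrontal cortex 71 genes were tested, and the share of all genes called was 0.673% for genotype averaged over diets, 0.121% on the normal and 0.234% on the lacking diet, 0% for diet averaged, in WT or in KO mice, 0.28% for KO lacking against WT normal and 0% for the interaction. In the striatum, with 71 tested, the same shares were 0.203%, 0.0601%, 0.128%, 0% for each diet contrast, 0.0826% and 0%. In the hippocampus, with 74 tested, they were 0.164%, 0.0299%, 0.0672%, 0% for each diet contrast, 0.0149% and 0%.

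At an unadjusted p under 0.05 between 0 and 10 channel genes were found per contrast with edgeR, up to 13 with DESeq2 and up to 11 with limma. For genotype in the prefrontal cortex these were 6 of 71 averaged over diets (14.1% of all genes), 3 on the normal diet (5.37%) and 5 on the lacking diet (12.4%). For diet there they were 4 averaged over genotypes (3.28%), 2 in WT mice (2.27%) and 2 in KO mice (5.19%). KO lacking against WT normal gave 6 (13%) and the interaction 0 (3.17%). Over the 24 contrasts within regions the share of channel genes under this limit ran from 0% to 13.5%, the highest being the hippocampal interaction.

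In the striatum genotype gave 6 of 71 averaged over diets (5.78%), 2 on the normal (2.43%) and 7 on the lacking diet (4.58%). Diet gave 1 (3.06%) averaged, 3 in WT (2.91%) and 0 in KO mice (1.68%), KO lacking against WT normal gave 2 (5.06%) and the interaction 2 (1.7%). In the hippocampus the genotype counts were 1 of 74 (4.24%), 4 (7.48%) and 4 (6.02%), the diet counts 0 (2.15%), 5 (4.03%) and 4 (6.56%), and the last 2 contrasts gave 3 (3.62%) and 10 (9.45%), in the same order. Genotype and diet effects were also compared between regions over the 60 libraries. In each of these 6 contrasts 0 of 75 genes passed, where 0.00718% of all genes passed for genotype between prefrontal cortex and hippocampus and 0% in the other 5. At an unadjusted p under 0.05 genotype gave 4 between prefrontal cortex and striatum (9.18%), 1 between prefrontal cortex and hippocampus (6.03%) and 3 between striatum and hippocampus (5.81%), and diet gave 1 (1.47%), 2 (2.86%) and 2 (2.71%).

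**Figure D5:**
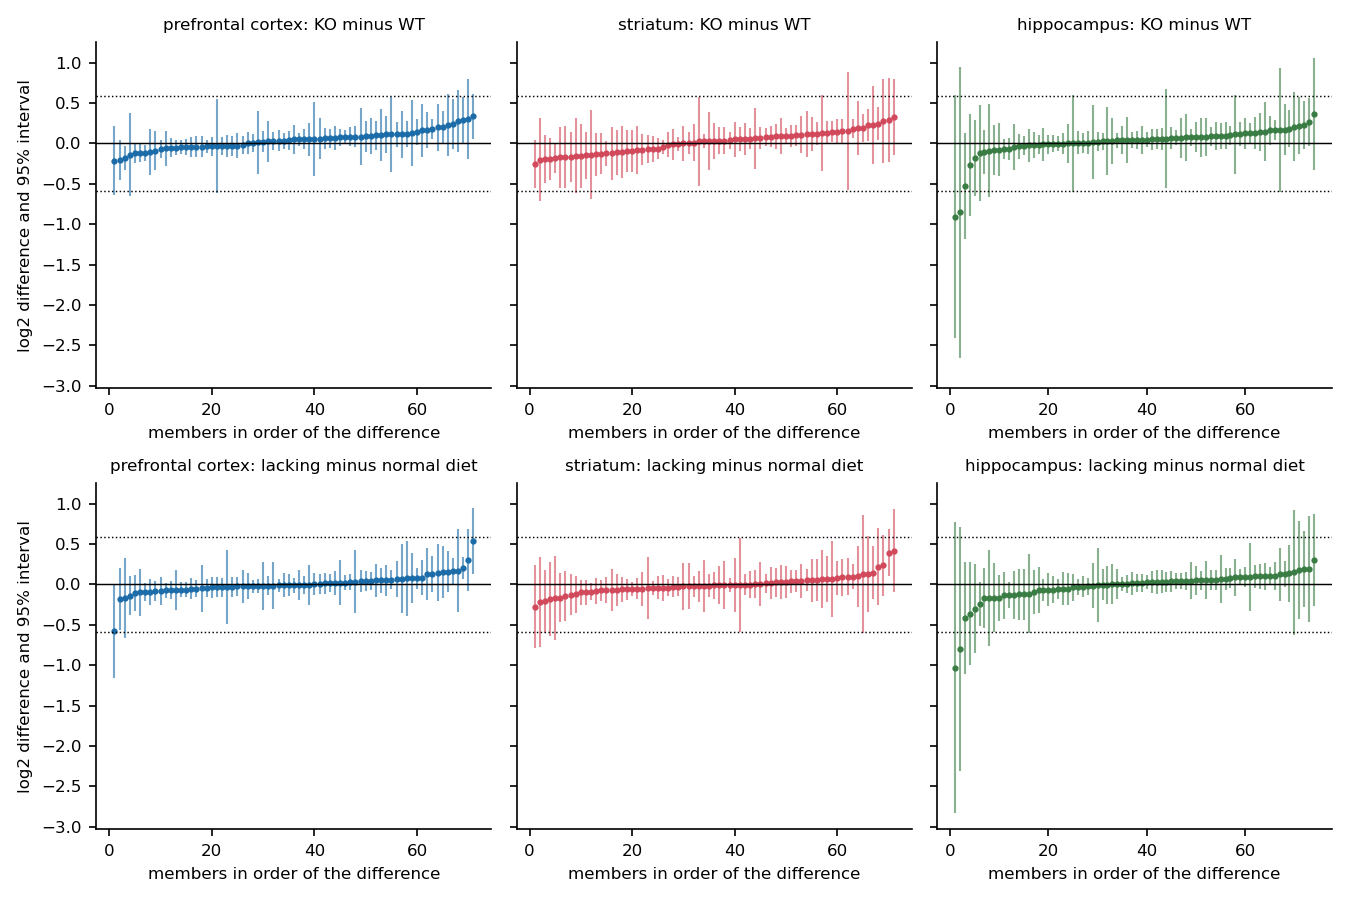
Log2 difference with its 95% interval for every tested channel gene, in order of the difference: KO minus WT in the upper row and lacking minus normal diet in the lower, with dotted lines at a 1.5-fold difference. For genotype 64 of 71, 62 of 71 and 61 of 74 intervals lay within these lines in prefrontal cortex, striatum and hippocampus. Genotype cannot be told apart from batch.

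The 95% intervals give the sizes of difference that the data allow. For KO minus WT they hold batch together with genotype, as these cannot be told apart. For genotype averaged over diets the 95% interval lay within 1.5-fold (0.58 on the log2 scale) in either direction for 64 of 71 genes in Pfc, 62 of 71 in Str and 61 of 74 in Hip. For diet these counts were 66, 59 and 61. The genes with wider intervals were mostly low ones, such as Kcnmb1, Kcng4 and Kcnh6, and in the hippocampus also Kcne2 and Kcnj13. The median absolute log2 difference of the channel genes for genotype was 0.08, 0.11 and 0.07 in prefrontal cortex, striatum and hippocampus, beside 0.08, 0.08 and 0.06 over all genes.

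Kcnj9 had the smallest p for genotype in the prefrontal cortex. Its values were 17.4, 17.7, 19.0, 21.1 and 21.7 RPKM in WT normal mice, 16.7, 19.2, 20.9, 21.3 and 23.8 in WT lacking, 18.4, 20.5, 21.2, 25.4 and 25.5 in KO normal and 20.4, 22.3, 24.5, 24.7 and 25.7 in KO lacking. All 4 groups overlapped. The log2 difference of KO minus WT was 0.18 (95% interval 0.05 to 0.31, adjusted p 0.183). Kcnj16 had a difference of -0.18 (adjusted p 0.246), with groups between 15.5 and 23.8 RPKM.

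Kcnk1 had the smallest p for genotype in the striatum. Its values were 54.0, 54.9, 55.2, 55.9 and 56.8 RPKM in WT normal, 51.3, 54.0, 56.1, 59.3 and 62.4 in WT lacking, 58.7, 61.5, 61.6, 62.6 and 62.9 in KO normal and 53.6, 59.1, 59.4, 68.9 and 69.1 in KO lacking. On the normal diet the KO values lay above the WT values, and on the lacking diet they overlapped. The log2 difference averaged over diets was 0.18 (95% interval 0.06 to 0.30, adjusted p 0.642). Kcnt2 followed with 0.25 (SE 0.10, adjusted p 0.740).

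Kcnn3 was first for genotype in the hippocampus. Its values were 3.45, 3.63, 3.77, 3.94 and 3.97 RPKM in WT normal, 3.73, 4.20, 4.32, 4.54 and 4.69 in WT lacking, 4.18, 4.19, 4.93, 4.98 and 5.48 in KO normal and 3.94, 4.06, 4.26, 4.36 and 4.81 in KO lacking. The normal-diet groups did not overlap, and the lacking-diet groups did. The averaged log2 difference was 0.17 (95% interval 0.04 to 0.30, adjusted p 0.901). Kcnj9 was second there, at 0.13 (SE 0.06).

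On the normal diet the KO and WT ranges of 5 mice did not overlap for 1 channel gene in Pfc (Kcna2), 1 in Str (Kcnk1) and 3 in Hip (Kcnj6, Kcnmb2 and Kcnn3), beside 1.07%, 0.436% and 0.896% of all genes. On the lacking diet this held for 1 (Kcnip4), 0 and 1 (Kcnj3), beside 1.75%, 0.984% and 1.42%. Between diets it held in WT mice for 1 (Kcnip1), 0 and 1 (Kcnmb2), beside 0.355%, 0.676% and 0.448%, and in KO mice for 0, 1 (Kcnmb2) and 0, beside 0.839%, 0.21% and 2.58%. For KO lacking against WT normal it held for 0 in each region (3.01%, 0.729% and 0.866%). These genes were named after their values were seen, and none of them passed the test.

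For diet the smallest p in the prefrontal cortex was that of Kcnn3, with a log2 difference of 0.21 (95% interval 0.07 to 0.34), and then Kcng2, with 0.54 (SE 0.20). Kcng2 lay between 0.268 and 0.961 RPKM in WT normal, 0.553 and 1.10 in WT lacking, 0.489 and 0.692 in KO normal and 0.682 and 1.23 in KO lacking mice. In the striatum Kcnab3 came first (0.39, SE 0.14), and Kcnh6 came next (0.42, SE 0.25). In the hippocampus Kcnq3 had a difference of 0.10 (SE 0.05). The adjusted p of each gene named here was at least 0.999.

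Glo1 lies on mouse chromosome 17, which carries Kcnh8, Kcng3 and Kcnk12 among the channel genes. The nearest, Kcnh8, starts 21990050 bases from the end of Glo1. KO minus WT in Kcng3 was 0.11 (95% interval -0.11 to 0.34) in Pfc, 0.03 (-0.13 to 0.20) in Str and 0.07 (-0.16 to 0.31) in Hip, as log2 differences. Kcnh8, a low gene, had 0.28 (-0.24 to 0.80) in Str and -0.27 (-0.90 to 0.37) in Hip, and Kcnk12 was under the low-count filter.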

How the data were processed

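The authors deposited raw counts per gene (whole numbers) and RPKM values for 60 libraries of 21999 genes. Per the submitters' processing notes STAR 2.7.1a, HTSeq 0.9.1 and the build mm10 were used; the annotation and the strand setting are not given in the sources used here. The deposited RPKM values served for levels. Counts were tested with edgeR 4.0.16 (R 4.3.3; TMM, filterByExpr with a minimum count of 10 and total of 15, quasi-likelihood F-tests, two-sided, Benjamini-Hochberg adjustment over all genes of a contrast, threshold 0.05). Regions were compared on 60 libraries and genotype and diet on the 20 libraries of a region, with a mean per group. Replicates were separate mice; replicate pairs differed by more than counting error (chi-square per gene of at least 1.97).

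The 3 libraries of a mouse share its number in the labels and so are paired by animal; the mean correlation of their deviations from group means was 0.06 over 60 pairs, against -0.01 over 240 pairs of different mice. The members and lists were chosen with earlier results of these data known. Named were, per region contrast and direction, up to 5 genes past the threshold with the largest difference and the same direction in all 20 mice, the highest gene of each class and the 2 smallest p-values of the averaged genotype and diet effects. Members named beyond these were chosen after their values were seen. A few genes are not reported here. Overlaps, shared 75-base stretches and positions come from GENCODE vM21 (GRCm38), and start regions from RefSeq. The steps were tested on simulated data. Alternatives were DESeq2 1.42.0, limma 3.58.1 on log2(RPKM + 1) or log2(RPKM + 0.1), no TMM, other low-count filters, the RNA integrity number as a covariate, the mouse as a block, only the compared groups, only WT mice on the normal diet, and leaving out each mouse. Leaving out the hippocampal libraries above 50 RPKM of Ttr, or the 2 libraries per region farthest from its median profile, was added after seeing the data.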

Additional observations from a re-analysis of the deposited data

Results flagged for a closer look

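In 56 groups of 5 libraries, those of Kcne2, Kcnj13 and the genes with the smallest p-values for genotype or diet, the highest and the lowest library were compared with the rest of their group (Dixon's ratio, critical value 0.710), and 3 groups held a library that stood apart; chance alone flags about 1 group in 20. Mouse 267, of the KO normal group, had in its hippocampal library 9.14 RPKM of Kcne2, with the next library at 2.31 (ratio 0.748), and 18.8 RPKM of Kcnj13, with the next at 5.03 (ratio 0.739). This library had the highest Ttr of all, at 1197 RPKM. Mouse 286, of the WT normal group, had in its hippocampal library 8.64 RPKM of Kcnj9, with the other 4 between 10.7 and 11.5 (ratio 0.724).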

How the results depend on the processing

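Over 10 alternatives the number of channel genes called was 68 to 72 between prefrontal cortex and striatum, 64 to 70 between prefrontal cortex and hippocampus and 64 to 69 between striatum and hippocampus. Leaving out each mouse gave 68 to 72, 67 to 71 and 66 to 68. The mouse as a replicate block gave 69, 69 and 66, the counts of the fit without it, and changed no call count of genotype or diet between regions. With only the 5 WT mice on the normal diet, fewer samples, 59, 49 and 57 of 72 tested genes were called. The count at 2-fold between prefrontal cortex and hippocampus was 11 with limma on log2(RPKM + 1), against 21, and the cause was not tested. Over the 10 alternatives the count at 2-fold ran from 26 to 38 between prefrontal cortex and striatum, against 35. Between striatum and hippocampus it ran from 24 to 37, against 34. Kcnj10, not called between prefrontal cortex and hippocampus, turned to -0.0386 and -0.0393 on the log2 scale with limma (pseudocounts 1 and 0.1) and to -0.0389 without TMM, again not called; the cause was not tested. Kcnj13 turned from -2.04 to 0.4761 when the 8 hippocampal libraries above 50 RPKM of Ttr were left out, a choice made after seeing the data. Leaving out the 2 libraries per region farthest from the median profile was also added then. Among genes called in the main test, 2, 8 and 2 in the 3 region contrasts lost the call under at least 1 of these 30 settings. Kcnc2, Kcnj3 and Kcnk1 were among them between prefrontal cortex and hippocampus. The fit of only the WT mice on the normal diet is not among the 30, and in it 9, 17 and 7 genes lost the call. The count for genotype, diet and their interaction was 0 under every setting run. Within a region no paired analysis was possible because the groups hold different mice with different numbers. The genes whose intervals for genotype and diet ran past 1.5-fold were mostly low ones, and the part of depth was not tested.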
